A study of Mus musculus with 43 samples.

Results

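The 10 genes described here belong to growth control and the early stress response, and were followed through every library of the series. They are Gadd45a, Gadd45b and Gadd45g, Pim1 and Pim3, Btg1 and Btg2, Ier3 and Ier5, and Dusp1. They were picked by symbol after their values among the processing conditions had been seen, and all 10 were found among the 13845 genes of the processing table and the 13817 genes of the input table. Values among the processing conditions are therefore given as a description.

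The cells are PD798, a line grown from a pancreatic tumour of a KPCY mouse, in which Cre under the Pdx1 promoter acts on a conditional p53 allele and switches on a yellow fluorescent reporter from the Rosa locus. The line comes from a single tumour, and the genotype is shared by every group. The processing experiment asked whether the handling of cells changes their transcripts, and it holds 12 libraries of RNA from bulk cells, 3 for each of 4 conditions. Pre-FACS cells were set aside before sorting without treatment, Mock cells stood on the bench in staining buffer, and Pre-enriched cells were labelled with magnetic particles, treated with red cell lysis buffer and passed through the pre-enrichment device ahead of the BD Influx sorter. FACS-only cells went through the sorter alone. The study's text describes them as coming from the sample that was pre-enriched, so they would have met the particles and the lysis buffer too, while the labels name only the sorter. The input series holds 31 libraries of cells spiked into normal mouse blood, pre-enriched and sorted: 11 single cells, 12 pools of 10 cells, 6 pools of 100 cells, and 2 libraries of bulk RNA. The labels give the bulk RNA the same flow treatment as the sorted cells, whereas the study's text describes it once as cells sorted from blood and elsewhere as the line itself, so its handling is not settled here. The labels also mention blood for the processing conditions, which the study's description of them does not. No label names separate cultures, so the p-values below measure the spread between libraries only.

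The proteins of these genes act at successive points where a cell under stress slows growth or survives. GADD45 proteins bind the kinase MAP3K4 upstream of p38 and JNK, and they also bind PCNA and the CDK1 complex. PIM kinases are active as soon as they are made, so their activity follows the amount of protein. Cytokine receptors raise their transcripts through JAK and STAT proteins. BTG1 and BTG2 bring the CCR4-NOT deadenylase to messenger RNAs and slow proliferation, IER3 and IER5 are short-lived products of early response genes, and DUSP1 is a nuclear phosphatase that turns off p38, JNK and related kinases, and many of these genes are early response genes in epithelial tumour cells.

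Expression was given by the authors as TPM, a share of all transcripts that is corrected for gene length. TPM keeps no record of read number, so the depth of each library is not known here. The study's text gives mean depths for the input series and a minimum depth per sample, but no depth for each library. The epithelial identity in the labels was met, since all 6 epithelial markers were at 1 TPM or more in all 12 processing libraries, with a summed level of 19812 to 22947 TPM. Of 16 leukocyte markers 3 are in the processing table, and their summed level was 1.10 to 2.49 TPM. In the input series 7 libraries stand apart from the others of their label: single cells 6 and 9, 10-cell pools 5 and 12, and 100-cell pools 1, 2 and 3. They correlate with each other at r = 0.973 to 0.996 across genes and hold 11223 to 11549 genes at 1 TPM or more. The other 9 single cells hold 3919 to 8598 such genes and correlate at 0.560 to 0.755, the other 10-cell pools hold 9149 to 10760, and 100-cell pools 4, 5 and 6 hold 10255 to 10400. Single cell 6 correlated with 10-cell pools 5 and 12 at 0.996, as closely as the bulk RNA libraries did with each other (0.995). Whether these libraries hold the number of cells in their labels was not tested, and results of the input series are given with and without them.

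In the processing experiment Ier3 was the most abundant of the genes, with a mean of 759 TPM over the 12 libraries (SD 53.8). Pim3 followed at 481 TPM and Dusp1 at 370 TPM, then Btg2 at 337, Btg1 at 145, Gadd45a at 129, Pim1 at 106, Ier5 at 99.8, Gadd45g at 79.2 and Gadd45b at 54.4 TPM. The ranges over the 12 libraries did not overlap between Ier3 and Pim3, between Pim3 and Dusp1, or between Btg2 and Btg1. Every other pair of neighbours in this order overlapped. Pim3 and Btg1 were the steadiest, their highest library lying 1.11-fold and 1.12-fold above their lowest, compared with 1.96-fold for Pim1 and 1.84-fold for Gadd45g. In libraries of many cells, fewer cells with a transcript and less of it per cell cannot be told apart.

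**Figure D1:**
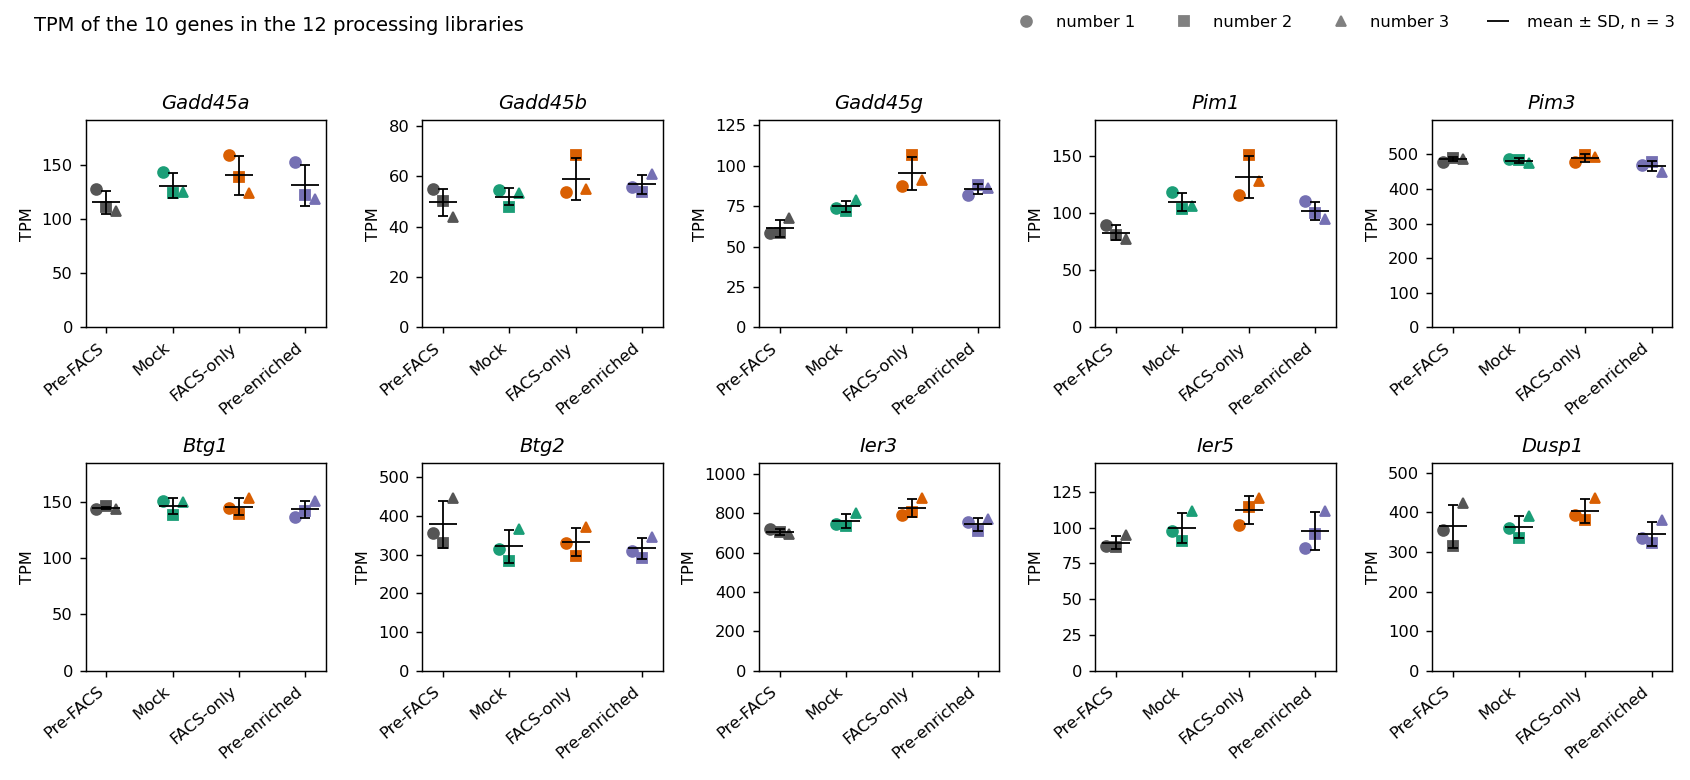
TPM (vertical axis, from 0) of each gene in the 3 libraries of each condition, with the shape of a point giving the replicate number and bars giving mean ± SD (n = 3). Gadd45g and Pim1 lie lowest in Pre-FACS and highest in FACS-only, while the points of Pim3 and Btg1 lie close together.

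Of the Gadd45 genes, Gadd45g differed most among the conditions. In Pre-FACS it was at 58.5, 58.1 and 67.4 TPM, after Mock handling at 74.1, 71.6 and 78.6, after FACS alone at 87.5, 107 and 91.3, and with pre-enrichment at 82.1, 88.0 and 86.1. The 3 Pre-FACS libraries lay below the other 9, and the Mock libraries lay below those of both sorted conditions. The mean in FACS-only was 1.55-fold that in Pre-FACS, a difference of 0.62 ± 0.0821 (SE, n = 3 per condition) on the scale of log2(TPM + 1) with an adjusted p of 0.00521 in limma. Against Pre-FACS, Pre-enriched was 0.47 higher (adjusted p = 0.0501), and Mock was 0.28 higher (adjusted p = 0.936). With a block for the replicate number in limma the adjusted p for Pre-enriched was 0.0140. Whether equal numbers mark pairs was not settled.

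Gadd45a, the family member best known as a p53 and DNA damage target, was at 128, 111 and 107 TPM in Pre-FACS and at 159, 138 and 123 in FACS-only. These groups overlapped, and the difference of 0.28 had an adjusted p of 0.585. For each replicate number, however, Gadd45a was lowest in the Pre-FACS library. With the replicate block in limma the adjusted p was 0.0255. An unstranded library cannot separate Gadd45a from E230016M11Rik, which overlaps it on the opposite strand. Gadd45b, induced by TGF-beta and NF-kB signalling in many cells, was at 54.9, 50.1 and 44.0 TPM in Pre-FACS and at 53.7, 68.7 and 54.9 in FACS-only. Its groups overlapped as well, with a difference of 0.24 (adjusted p = 0.650).

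Pim1 was at 90.1, 81.0 and 77.3 TPM before FACS. The Mock libraries held 118, 104 and 106 TPM, those of FACS-only 116, 151 and 128, and those of Pre-enriched 111, 99.9 and 95.3. Pre-FACS was again below all 9 other libraries, and FACS-only lay above Pre-enriched without overlap. The mean in FACS-only was 1.59-fold that in Pre-FACS (difference 0.66 ± 0.0929 SE, adjusted p = 0.00588). The difference from Pre-FACS was 0.40 in Mock (adjusted p = 0.627) and 0.30 in Pre-enriched (adjusted p = 0.333). Reads of Pim1 may include an antisense transcript, Gm26885, that overlaps it.

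Pim3 encodes a second kinase of the family, and its levels lay close together. The Pre-FACS libraries held 479, 489 and 488 TPM, the Mock libraries 487, 484 and 475, the FACS-only libraries 477, 499 and 493, and the Pre-enriched libraries 469, 477 and 450. The FACS-only difference from Pre-FACS was 0.01 ± 0.0435 (adjusted p = 0.982), and it changed sign (to -0.00123) when FACS-only replicate 2 was left out. The Pre-enriched libraries lay just below those of Pre-FACS without overlap, with a difference of -0.06 (adjusted p = 0.717).

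Ier3, whose product affects cell survival, was at 721, 706 and 692 TPM in the Pre-FACS libraries, at 744, 733 and 800 in those of Mock, at 792, 809 and 879 in those of FACS-only, and at 756, 708 and 769 in the Pre-enriched ones. FACS-only and Mock lay above Pre-FACS without overlap, and the difference for FACS-only was 0.22 (adjusted p = 0.164). Ier5, a regulator of HSF1 and PP2A, was at 87.3, 86.2 and 94.8 TPM in Pre-FACS and at 102, 114 and 121 in FACS-only. Those groups did not overlap either, with a difference of 0.32 (adjusted p = 0.425). With the replicate block in limma the adjusted p for FACS-only was 0.0233 for Ier3 and 0.0372 for Ier5.

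Btg2 had its highest values in Pre-FACS. The libraries of Pre-FACS held 357, 330 and 447 TPM, those of Mock 314, 283 and 367, those of FACS-only 331, 298 and 371, and those of Pre-enriched 311, 293 and 346. For each replicate number the Pre-FACS library was the highest of the 4, but the ranges overlapped. The differences from Pre-FACS were -0.23 in Mock (adjusted p = 0.997), -0.18 in FACS-only (adjusted p = 0.818) and -0.25 in Pre-enriched (adjusted p = 0.520). With the replicate block in limma the adjusted p for Pre-enriched was 0.0277. Btg1 ran from 137 to 154 TPM over all 12 libraries and showed no order of conditions. Dusp1 was at 355, 316 and 425 TPM in Pre-FACS and at 394, 380 and 437 in FACS-only, with overlapping groups and a difference of 0.15 (adjusted p = 0.804). Its annotated record reaches chr17:26562128, far upstream of the promoter printed below, and overlaps Ergic1 on the opposite strand. Where in the record the overlap lies was not examined, and some Dusp1 reads may belong to Ergic1.

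**Figure D2:**
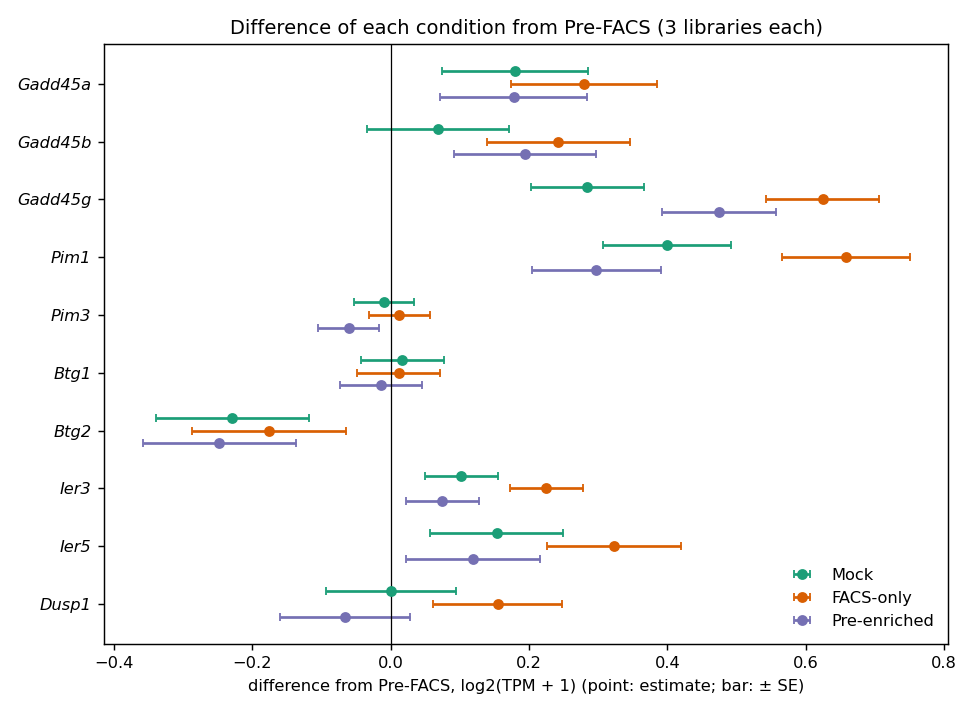
Difference from Pre-FACS on the log2(TPM + 1) scale (horizontal axis) for each gene, with points for the limma estimate and bars for ± SE, for Mock, FACS-only and Pre-enriched (3 libraries each). Gadd45g and Pim1 have the largest differences in FACS-only (0.62 and 0.66), Pim3 and Btg1 sit near 0 in FACS-only (0.01 each), and Btg2 lies below 0 in every condition.

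These differences were read from the fit of 12159 genes that reached 1 TPM in 3 or more libraries. Between FACS-only and Pre-FACS 2 of the 10 genes had an adjusted p under 0.05, both higher, where 0.123% of all genes tested did and 0.0987% did so in the higher direction. The libraries did not overlap, with FACS-only higher, for 4 of the 10, compared with 5.81% of all genes. Mock lay above Pre-FACS in this way for 3 of the 10 (4.93% of all genes), Pre-enriched lay above it for 2 (6%) and below it for Pim3 (8.24%). By adjusted p, 0 of the 10 were called for Pre-enriched or Mock against Pre-FACS, where 0.0493% and 0.00822% of all genes were. The median difference of the 10 genes was 0.23, against 0.00 for all genes. Among the 4 conditions together limma's F test called Gadd45g (adjusted p = 0.0310) and Pim1 (adjusted p = 0.0338), where it called 0.107% of genes. These values chose the genes, so the counts describe the genes and nothing is read from them. The FACS-only calls of both genes were kept when any 1 of the 12 libraries was left out (highest adjusted p 0.0439 and 0.0466), but without limma's mean-variance trend the adjusted p was 0.112 and 0.116. The F test was less stable: the call of Pim1 was lost without any library other than FACS-only replicate 1 (adjusted p up to 0.215), and that of Gadd45g without Pre-FACS replicates 1 or 2, Mock replicate 1, FACS-only replicates 2 or 3, or Pre-enriched replicates 1 or 3 (up to 0.142).

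Pre-enriched was compared with FACS-only, which by the study's text differ in the passage through the pre-enrichment device. In the mean, all 10 genes were lower in Pre-enriched than in FACS-only, where 45.6% of all genes were higher. The genes were picked after the values of these libraries had been seen, so nothing is read from this count. The largest of these differences was that of Pim1 (-0.36 ± 0.0929, adjusted p = 0.437), and Gadd45g differed by -0.15 (adjusted p = 0.787). No gene of the 12159 was called in this comparison by limma (0%, with 821 genes at an unadjusted p under 0.05), Pim1 and Ier3 lay lower without overlap (7.41% of all genes), and 3 of the 10 had an unadjusted p under 0.05. FACS-only against Mock also called 0 genes by limma (684 unadjusted), without overlap for Gadd45g (5.11% of all genes), with Gadd45g 0.34 higher (adjusted p = 0.693) and Pim1 0.26 higher (adjusted p = 0.829). Pre-enriched against Mock called 0 genes too (945 unadjusted), again without overlap for Gadd45g (6.6% of all genes), and there Gadd45g was 0.19 higher (adjusted p = 0.624) and Pim1 0.10 lower (adjusted p = 0.827). Comparisons that share a condition share its 3 libraries and are not independent of each other.

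Partners of these proteins were examined in the same fit. None of the 16 GADD45 partners and stress kinases was called by limma in any pair of conditions, nor were any of 19 genes of the PIM, JAK and STAT group, 15 of the BTG, TOB and CCR4-NOT group or 16 of a group of IER and DUSP genes and the kinases they act on. Between FACS-only and Pre-FACS the numbers with an unadjusted p under 0.05 were 0, 1, 1 and 4, beside 846 of all 12159 genes, and over all pairs and groups they ran from 0 to 5, beside 551 to 1116 of all genes. Their genes of lowest p were Cdk1 (-0.11, adjusted p = 0.805), the kinase of mitotic entry, and Cdkn1b (-0.41, adjusted p = 0.670), a cell cycle inhibitor that PIM kinases phosphorylate. They were followed by Cnot4 (0.23, adjusted p = 0.640), a ubiquitin ligase of CCR4-NOT, and Ier5l (-0.37, adjusted p = 0.542), the paralog of Ier5. The median differences of the 4 groups were 0.01, -0.04, 0.03 and -0.02. Between Pre-enriched and Pre-FACS the gene of lowest p was Jak2, a kinase upstream of Pim1, with a difference of -0.28 (adjusted p = 0.173).

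A second pattern ran across the conditions with the replicate number of the library. Btg2 was highest in the library numbered 3 and lowest in the one numbered 2 in all 4 conditions, and so was Dusp1. Ier5 was also highest in the libraries numbered 3 in all 4, and Gadd45a was highest in those numbered 1, where it reached 159 TPM in FACS-only, 152 in Pre-enriched, 144 in Mock and 128 in Pre-FACS. Averaged over the conditions, Btg2 was at 328, 301 and 383 TPM in the libraries numbered 1, 2 and 3, and Dusp1 at 361, 339 and 409. A single number was highest in all conditions for 4 of the 10 genes, compared with 7.15% of the genes tested. For 2 of the 10 a single number was highest and a different one lowest throughout, compared with 1.61%. With condition means removed, Btg2 and Dusp1 correlated at r = 0.963 over the 12 libraries, which share 3 numbers. The labels do not say what a number stands for, and what it shares was not tested.

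**Figure D3:**
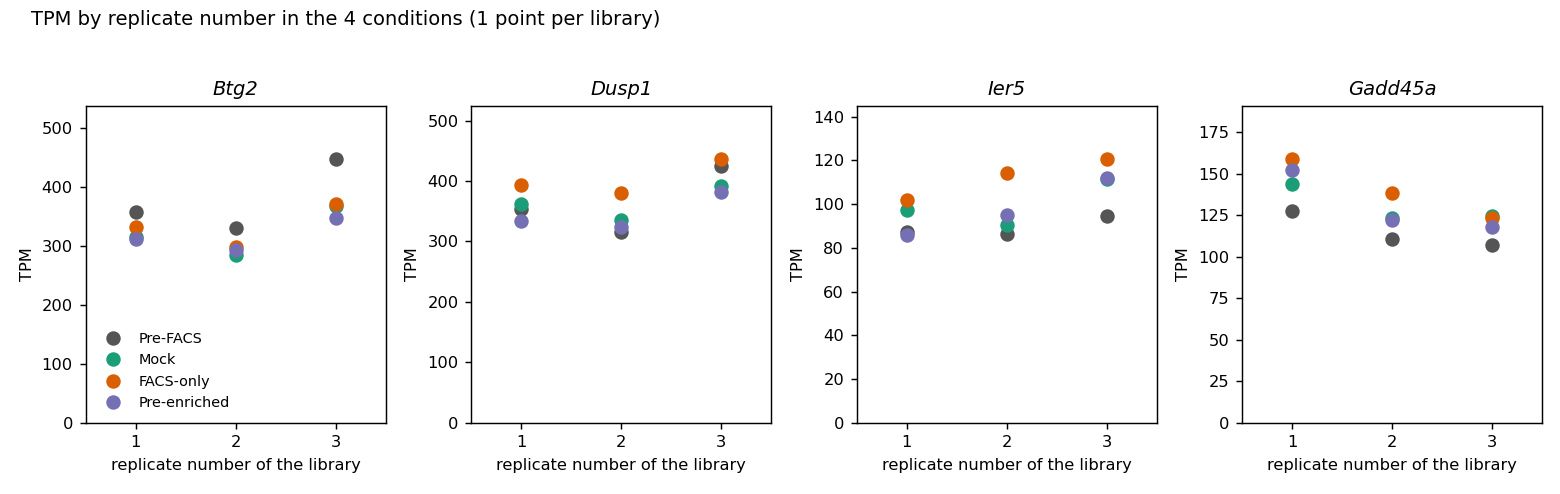
TPM (vertical axis, from 0) of 4 genes against the replicate number of the library, with 1 point per library and colours for the 4 conditions. Btg2 and Dusp1 are highest in the libraries numbered 3 and lowest in those numbered 2 in every condition, Ier5 is highest in those numbered 3, and Gadd45a in those numbered 1.

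The promoters of Btg2 and Dusp1 are shown because these genes followed the same order of libraries, and because theirs are the promoters of the 10 that hold a full cAMP response element (CRE), the binding site of CREB and ATF factors. The RefSeq table for GRCm38.p6 gave a promoter for all 10 genes. The 250 bases before each start are written 5′ to 3′ on the strand of the gene, with the element TGACGTCA in capitals. The Btg2 stretch is chr1:134079156-134079405 on the minus strand and that of Dusp1 is chr17:26508473-26508722 on the minus strand.
Btg2: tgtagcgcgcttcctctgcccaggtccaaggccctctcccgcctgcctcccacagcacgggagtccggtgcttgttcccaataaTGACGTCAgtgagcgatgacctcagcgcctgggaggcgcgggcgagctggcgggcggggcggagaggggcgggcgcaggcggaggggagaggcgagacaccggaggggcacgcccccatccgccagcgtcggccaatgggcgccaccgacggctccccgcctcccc
Dusp1: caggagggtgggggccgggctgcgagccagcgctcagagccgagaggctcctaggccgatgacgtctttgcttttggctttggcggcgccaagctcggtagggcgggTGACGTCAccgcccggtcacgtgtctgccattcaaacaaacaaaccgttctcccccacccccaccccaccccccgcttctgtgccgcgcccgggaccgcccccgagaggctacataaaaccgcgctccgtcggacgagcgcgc
The element begins 166 bases before the start of Btg2 and 143 bases before that of Dusp1. On either strand it is present in 1.79% of the 32851 promoter windows of the table, each of 300 bases. Other motifs were also searched on both strands. Matches to the AP-1 letters TGANTCA (7.81% of promoters) and to a narrow form of the kappa-B site (1.47%) were found in 0 of the 10 genes. The same held for the ATF4 composite letters TGATGNAAT (0.965%) and the heat-shock letters GAANNTTC (7.86%). Looser forms of the kappa-B site were not searched, so their presence in these promoters is not known from this search. A match is a run of letters, and binding was not measured.

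Among 10130 genes with a mean of at least 5 TPM, the ones whose pattern over the 12 libraries was most like that of Gadd45g were Rbm39 (r = 0.913), Chka (0.905) and Mtdh (0.901). Those most like Pim1 were Areg (0.935), Epha2 (0.884) and Nr1d1 (0.883). The points share 4 conditions and 3 numbers, and the coefficients are descriptions.

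In bulk RNA of the input series Dusp1 was the most abundant of the genes, at 1119 and 1151 TPM, followed by Ier3 at 853 and 877, Pim3 at 533 and 541, Gadd45a at 249 and 237, and Gadd45g at 223 and 203. Btg2 was at 189 and 188 TPM, Ier5 at 176 and 180, Gadd45b at 156 and 152, Btg1 at 97.0 and 94.9, and Pim1 at 71.8 and 65.6. Each table was normalized separately, so these levels are not set against those of the processing experiment.

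**Figure D4:**
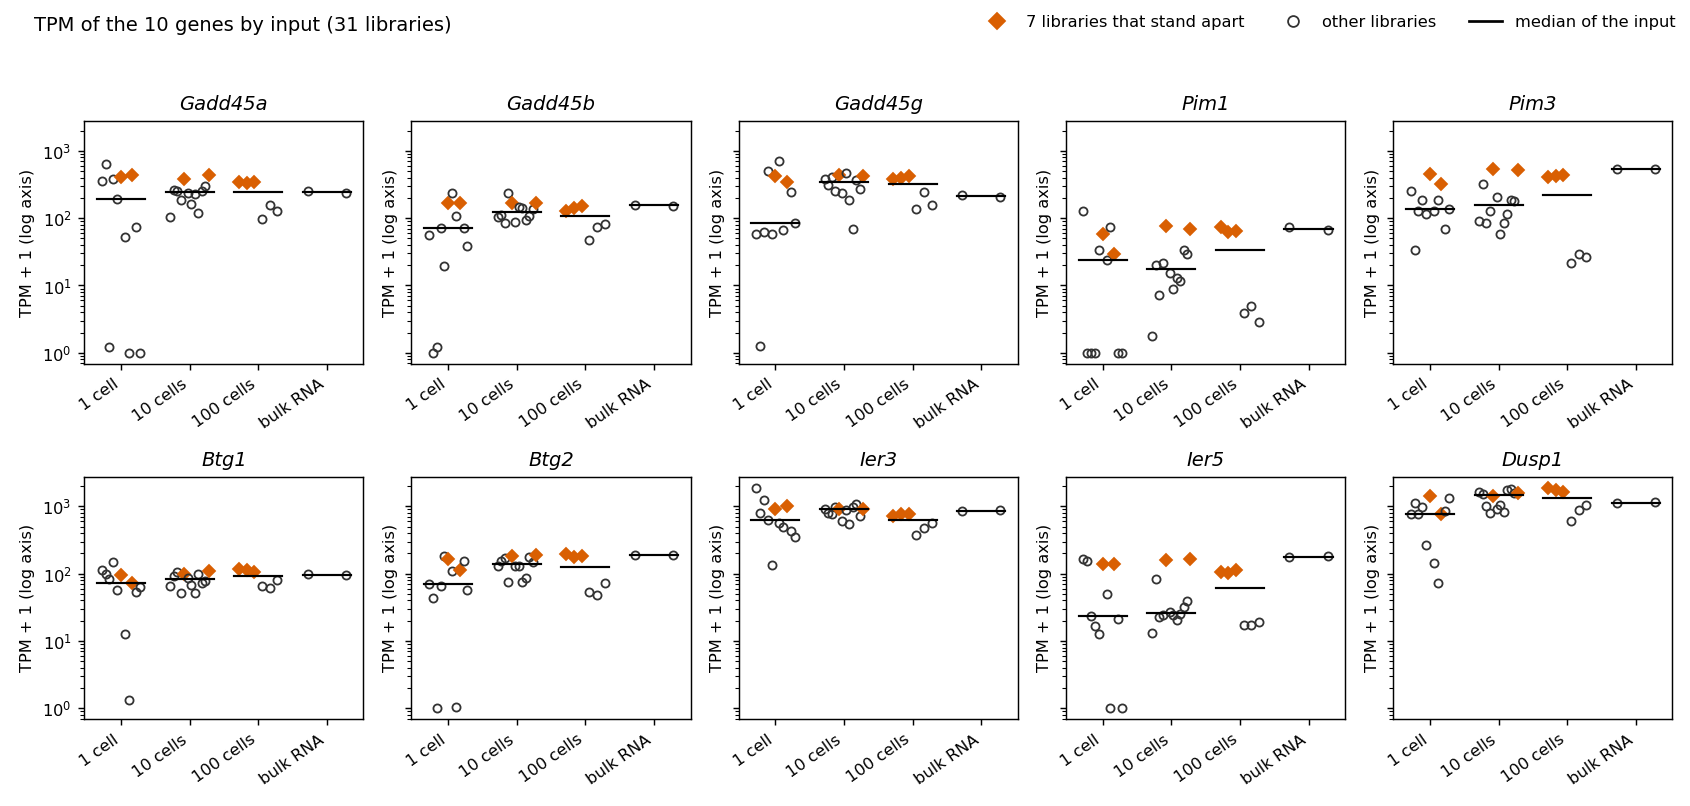
TPM + 1 on a log axis for each gene in the 31 libraries of the input series, with filled diamonds for the 7 libraries that stand apart, open circles for the others and a line for the median of each input. Pim1, Pim3 and Ier5 lie far below bulk RNA in the open circles of the 10-cell and 100-cell pools, whereas Gadd45g, Ier3 and Dusp1 stay near it.

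Pim3, Pim1 and Ier5 split the pools most sharply. Pim3 was at 406, 424 and 442 TPM in 100-cell pools 1, 2 and 3, but at 20.8, 28.7 and 25.8 in pools 4, 5 and 6, and at 543 and 521 TPM in 10-cell pools 5 and 12, compared with 57.6 to 321 in the other 10. Pim1 was at 72.5, 61.3 and 63.3 TPM in 100-cell pools 1, 2 and 3 and at 2.86, 3.92 and 1.89 in pools 4, 5 and 6. Ier5 was at 104, 100 and 111 TPM in the first of these sets and at 16.1, 16.1 and 18.4 in the second. The sets of 100-cell pools did not overlap for these genes, nor for any other of the 10 genes described. Btg1, for example, was at 106 to 116 TPM in pools 1, 2 and 3 and at 59.3 to 78.5 in pools 4, 5 and 6. The share of all genes that split in this way was not counted, so nothing particular to the 10 genes is read from this count. The mean in 100-cell pools 4 to 6 was 23.8-fold below bulk RNA for Pim1, 21.4-fold for Pim3 and 10.5-fold for Ier5, as ratios of mean TPM. As differences of log2(mean TPM + 1) these were -4.16, -4.37 and -3.32, and 3.34%, 2.32% and 11.1% of 10055 expressed genes lay as low or lower on that scale. The median gene was itself at -1.45 there, and at -0.41 in 100-cell pools 1 to 3.

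Gadd45g, Dusp1, Ier3 and Btg1 lay nearer to bulk RNA than Pim1, Pim3 and Ier5 in 100-cell pools 4 to 6 and in the 10-cell pools other than 5 and 12. On the scale of log2(mean TPM + 1) they differed from it by -0.26, -0.42, -0.88 and -0.50 in the former and by 0.47, 0.18, -0.07 and -0.34 in the latter, where Pim1, Pim3 and Ier5 differed by -2.10, -1.89 and -2.51. The median gene was itself at -0.85 in those 10-cell pools. Of 10055 expressed genes, 19.9%, 24.3% and 11.9% lay as low as Pim1, Pim3 and Ier5 there, or lower. The order differed in the pools that stand apart, with Gadd45g 0.91 above bulk RNA in 100-cell pools 1 to 3, farther from it than Pim1 (-0.06) or Pim3 (-0.34). Gadd45g was at 134, 246 and 154 TPM in 100-cell pools 4, 5 and 6 and at 385, 392 and 426 in pools 1, 2 and 3, the latter above both bulk libraries. Over the 12 pools of 10 cells its lowest, median and highest values were 67.9, 343 and 475 TPM, and 10 of the 12 lay above the lower bulk library. Dusp1 was at 613, 882 and 1056 TPM in 100-cell pools 4, 5 and 6, at 1850, 1732 and 1617 in pools 1, 2 and 3, and at 796 to 1799 in the 10-cell pools. Ier3 ran from 548 to 1089 TPM over the 10-cell pools, around the bulk values, and Btg1 from 49.99 to 109.

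In 100-cell pools 4 to 6 Gadd45a, Gadd45b and Btg2 differed from bulk RNA by -0.94, -1.19 and -1.69 on the same scale. In the 10-cell pools other than 5 and 12 they differed from it by -0.21, -0.32 and -0.57, so Gadd45a and Gadd45b lay as near to it there as Btg1. Gadd45a ran from 103 to 443 TPM over the 12 pools of 10 cells (median 244), and was at 342, 337 and 340 TPM in 100-cell pools 1, 2 and 3 but at 94.8, 156 and 127 in pools 4, 5 and 6. Gadd45b was at 46.9, 72.9 and 81.8 TPM in 100-cell pools 4, 5 and 6, below both bulk libraries, and Btg2 at 53.4, 47.0 and 72.4 TPM.

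Tests of the input series used 20 libraries, without the single cells, and 12591 genes that reached 1 TPM in 2 or more of them. Between 10-cell pools and bulk RNA only Ier5 of the 10 was called (-2.26 ± 0.838, 12 pools against 2 bulk libraries, adjusted p = 0.0370), where 39.2% of all genes were called and 31.9% were called lower. That call was lost without either bulk library (adjusted p 0.188 and 0.190). Pim1 differed by -2.04 (adjusted p = 0.174), Pim3 by -1.72 (adjusted p = 0.172), Btg2 by -0.53 (adjusted p = 0.359) and Gadd45g by 0.43 (adjusted p = 0.520). The median of the 10 genes was -0.30 and that of all genes -0.84, and 18.6% of the calls over all genes were higher. Quantile normalization moved the median of all genes to 0.14 and that share to 54.8%, and Ier5 was then at -2.07 (adjusted p = 0.0244). Between 100-cell pools and bulk RNA none of the 10 was called by limma, where 32% of all genes were, and 3 of the 10 had an unadjusted p under 0.05, as did 5683 of the 12591 genes. Ier5 differed there by -2.04 (adjusted p = 0.0829), Pim3 by -2.36 (adjusted p = 0.0906), Pim1 by -2.13 (adjusted p = 0.190), Btg2 by -0.88 (adjusted p = 0.163) and Gadd45g by 0.30 (adjusted p = 0.687). Between 10-cell and 100-cell pools 0 of the 10 were called, where 0.00794% of genes were, and Ier3 had the lowest unadjusted p of the 10, 0.00689 (0.48 higher in 10-cell pools, adjusted p = 0.526).

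The libraries that stand apart changed most of these results. Without 10-cell pools 5 and 12 and 100-cell pools 1 to 3, a choice made after seeing the data, the 10-cell pools were lower than bulk RNA at the threshold for 3 of the 10 genes, Ier5 (-2.68, adjusted p = 0.000141), Pim1 (-2.46, adjusted p = 0.0132) and Pim3 (-2.07, adjusted p = 0.00123), where 40.8% of all genes were. The 3 remaining 100-cell pools were lower for 7 of the 10, where 45.3% of genes were. The largest of these were Pim3 (-4.38, adjusted p = 8.8e-06), Pim1 (-4.20, adjusted p = 0.000898), Ier5 (-3.32, adjusted p = 6.91e-05) and Btg2 (-1.72, adjusted p = 0.000857), followed by Gadd45b, Gadd45a and Ier3. Gadd45g turned from 0.30 to -0.31 in this comparison (adjusted p = 0.673). The 10-cell pools then lay above the 100-cell pools for Pim3 (2.31, adjusted p = 0.00104), Btg2 (1.08), Gadd45b (0.84) and Ier3 (0.80), which are 4 of the 10 where 10.2% of all genes were. With the opposite set left out, 100-cell pools 4 to 6, Pim3 differed from bulk RNA by -0.34 and Pim1 by -0.07.

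Length and base composition of the transcripts were set beside the differences from bulk RNA over all matched genes. Across 9708 genes, Spearman's rho between the length of the transcript in the annotation and the difference from bulk RNA was -0.60 in the other 10-cell pools, -0.47 in 100-cell pools 4 to 6, and -0.67 in pools 1 to 3. With GC content rho was -0.22 in the other 10-cell pools, -0.40 in 100-cell pools 4 to 6 and -0.01 in pools 1 to 3. The value for length was thus not the larger in pools 4 to 6, where Pim1 and Pim3 lay farthest below bulk RNA. Pim3, Pim1 and Ier5 have transcripts of 2427, 2698 and 3276 bases, and GC content is highest in Pim3 (61.9%), but Gadd45g is close at 59.9%. Gadd45g and Ier3, which lay nearer to bulk RNA in 100-cell pools 4 to 6 and the other 10-cell pools, are among the shortest at 1071 and 1131 bases, but so did Btg1, which is the longest at 5001 bases. Over the 10 genes themselves rho with length was -0.77 in the other 10-cell pools, -0.44 in 100-cell pools 4 to 6 and -0.33 in pools 1 to 3, and with GC content it was 0.13, -0.19 and -0.19. Blood markers did not differ from bulk RNA in 1 direction. Alas2, the erythroid marker in the table, had a median of 7.92 TPM in 10-cell pools. It was listed at 0 in 3 of the 12 and reached 83.3 TPM, against at most 0.415 in bulk RNA. In 100-cell pools it ran from 1.03 to 11.6 TPM. The 4 leukocyte markers in the table summed to 0 to 99.5 TPM in 10-cell pools (median 4.46). They summed to 36.2 to 150 in 100-cell pools (median 45.5) and to 47.1 to 61.9 in bulk RNA (median 54.5). The part of length, GC content or blood RNA in the result was not tested.

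In single cells the Gadd45 genes were found in different combinations. Cell 2 held Gadd45a at 646 TPM, with Gadd45b listed at 0 and Gadd45g at 0.243 TPM. Cell 3 held Gadd45g at 60.8 TPM and the other two below 1 TPM. Cell 7 held Gadd45g at 698, Gadd45b at 234 and Gadd45a at 50.8 TPM, the highest values of Gadd45g and Gadd45b in any single cell, while in cells 8 and 11 Gadd45a was listed at 0, beside Gadd45b at 108 and 37.9 and Gadd45g at 66.5 and 83.9 TPM. Gadd45a was the highest of the family in cells 1, 2, 5 and 9, Gadd45b in cell 8, and Gadd45g in the other 6. Cells 6 and 9, which stand apart, held all 3 genes, with Gadd45a at 408 and 429, Gadd45b at 165 and 168, and Gadd45g at 417 and 349 TPM. Those values lie close to the 10-cell pools that stand apart, where Gadd45a was at 381 and 443 TPM and Gadd45g at 432 and 416.

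**Figure D5:**
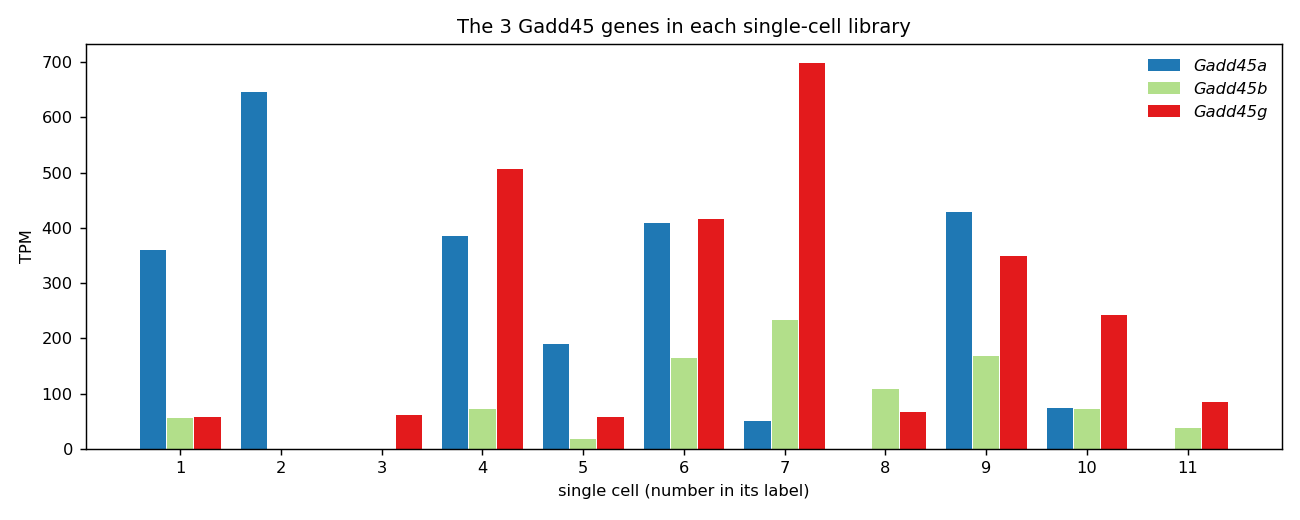
TPM (vertical axis, from 0) of Gadd45a, Gadd45b and Gadd45g in each of the 11 single-cell libraries, where a missing bar is a value at or near 0. Cell 2 shows Gadd45a without the others, at 646 TPM, cell 7 shows Gadd45g at 698 TPM, and cells 6 and 9, which stand apart, show all 3.

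Of the 110 values of the 10 genes in single cells, 94 were at 1 TPM or more, 5 were above 0 but under 1, and 11 were listed at 0. Without cells 6 and 9, 74 of 90 were at 1 TPM or more. Pim3, Ier3 and Dusp1 were at 1 TPM or more in all 11 cells. Pim1 was listed at 0 in 5 of the 11 (cells 2, 3, 4, 10 and 11) and reached 127 TPM in cell 1, which also had the highest Ier3 (1879 TPM) and Ier5 (163 TPM). Ier5 was listed at 0 in cells 8 and 11, and Btg2 in cell 3. In pools of 10 cells 119 of 120 values were at 1 TPM or more, the exception being Pim1 in pool 1 (0.756 TPM). The genes of the table hold 54.2% (cell 7) to 96.6% (cell 1) of the TPM total in the 9 cells that do not stand apart, and nearly all of it in cells 6 and 9, so levels set between cells depend on that share. Alas2 was listed at 0 in 8 of the 11 cells and reached 278 TPM, and the leukocyte markers summed to 0 to 115 TPM. The part of blood RNA in the values of single cells was not tested. A value of 0 in TPM can come from a transcript that was not captured. With the depth of each cell's library not known here, it does not show that the cell lacked the transcript.

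The spread between libraries was wider in single cells than in pools. The median SD of the 10 genes on the log2(TPM + 1) scale was 2.61 over single cells, 0.55 over 10-cell pools and 0.78 over 100-cell pools, or 2.66, 0.49 and 0.34 without the libraries that stand apart. On that scale Gadd45a varied most, with an SD of 3.81 over the 11 cells, where genes within 1.25-fold of its mean had a median SD of 1.01 and 96.9% of them had a lower SD. By the coefficient of variation of TPM, Pim1 (1.31), Ier5 (1.05) and Gadd45g (1.00) exceeded Gadd45a (0.970). Pim3 had an SD of 1.03, close to the median of 1.12 for genes of like mean. Gadd45g was among the more variable in 10-cell pools as well, at 0.77 against a median of 0.30 for genes of like mean, and at 0.80 against 0.30 without pools 5 and 12.

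Partner genes that were called between pools and bulk RNA were mostly lower in the pools, as were most calls over all genes, and nothing particular to the partners is read from their counts. Over all genes 39.2% were called in 10-cell pools and 31.9% lower, and the partners lay near or under this in each group except that of PIM (11 of 19). In these pools 5 of 16 GADD45 partners and stress kinases were called, all lower, among them Map3k4, the kinase that GADD45 proteins bind (-3.09), Map2k7 (-3.39) and Map2k4 (-1.36), which activate JNK, and Mapk14, which encodes p38-alpha (-1.56). Of the PIM, JAK and STAT group 9 of 19 were lower, including the cytokine receptor subunits Il6st (-4.23) and Osmr (-2.92) and the transcription factor Stat5b (-2.30, or -0.76 with an adjusted p of 0.0732 after quantile normalization). A further 2 of that group were higher, the PIM substrates Eif4ebp1 (0.90) and Bad (1.02). Of the BTG, TOB and CCR4-NOT group 5 of 15 were lower, led by the scaffold Cnot1 (-3.05), and by Prmt1, an arginine methyltransferase that binds BTG proteins (-3.79). Of the IER, DUSP and kinase group 5 of 16 were lower, such as the phosphatases Dusp4 (-3.75) and Dusp7 (-2.35), and Ier3ip1, which encodes a protein of the endoplasmic reticulum, was higher (1.03). The medians of the 4 groups were -0.69, -1.32, -0.93 and -1.12, beside -0.84 for all genes, and after quantile normalization 0.03, -0.76, -0.24 and -0.80, beside 0.14. The other named partners kept their direction and their call under that scaling. Without the pools that stand apart, 7, 11, 5 and 10 genes of the 4 groups were called lower in 10-cell pools, where 40.8% of all genes were. The 100-cell pools called 7, 9, 6 and 6 genes of the 4 groups, lower except for 2 of the PIM group and 1 of the IER group, where 32% of all genes were called. Without the pools that stand apart the numbers called lower in 100-cell pools were 8, 12, 7 and 13, with 1, 1, 0 and 1 called higher, where 45.3% of all genes were lower. Without 100-cell pools 4 to 6 limma called 926 of 12491 genes between 100-cell pools and bulk RNA, 348 of them higher. The calls were then 0 in the GADD45 group, 1 lower and 2 higher in the PIM group, 2 lower in the BTG group and 0 in the IER group. Between the 10-cell and 100-cell pools limma called none of the 4 groups (0, 2, 1 and 1 at an unadjusted p under 0.05, beside 920 of all genes). Without the pools that stand apart it called 5, 2, 0 and 7 genes higher in the 10-cell pools, where 10.2% of all genes were, and 1 of the PIM group lower.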

How the data were processed

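RNA of PD798 cells was amplified with the SMART-Seq v4 kit, which does not mark strand, and per the labels and the methods of the study the authors aligned reads to mm10 with STAR, counted them with featureCounts, applied upper-quartile normalization (EDASeq) and deposited TPM values computed with effective gene lengths. TPM keeps no depth, so the number of libraries limits the precision. Genes had to reach 1 TPM in 3 libraries (processing) or 2 libraries (input), and log2(TPM + 1) was fitted with limma 3.58.1 in R 4.3.3 with a mean-variance trend and Benjamini-Hochberg adjustment over all genes, so fold changes of low genes are understated. The fit was tested on simulated data. The 2 tables were normalized and tested separately. The genes and lists were chosen with earlier results of these data known, and the partner genes named are those of lowest p in each list. Alternatives changed the pseudocount, filter, scaling, trend, replicate block and libraries. Promoters came from RefSeq (GRCm38.p6, the same assembly as mm10). Some items of the genotype and of the gene lists are not reported here.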

Additional observations from a re-analysis of the deposited data

How the results depend on the processing

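The depth of each library is not known here, and 3 libraries per condition and 2 of bulk RNA limit the precision. No cause of the changes below was tested. In the processing experiment the fit as reported called 15 genes between FACS-only and Pre-FACS, 6 between Pre-enriched and Pre-FACS, 1 between Mock and Pre-FACS, 0 in the other pairs and 13 in the F test. In the input series it called 4935 genes between 10-cell pools and bulk RNA, 4034 between 100-cell pools and bulk RNA, and 1 between the pools. Without the filter there was 1 call between Mock and Pre-enriched, 1 between FACS-only and Pre-enriched, 7 for the F test and 3 between the pools, and the F test of Pim1 had an adjusted p of 0.0607. Without the trend they were 0 for FACS-only against Pre-FACS (816 at an unadjusted p under 0.05), 0 for Mock against Pre-FACS (558), 1 between Mock and Pre-enriched, 2 between FACS-only and Pre-enriched, 1 for the F test and 0 between the pools (868), and the F test of Gadd45g and Pim1 had adjusted p of 0.146 and 0.275. With only the libraries of both conditions they were 0 for Mock against Pre-FACS (491), 4 between Mock and Pre-enriched and 1 between FACS-only and Pre-enriched. With a pseudocount of 0.1 there were 2417 between 100-cell pools and bulk RNA and 2 between the pools, and after quantile normalization 2 between the pools. Without 100-cell pools 4 to 6 there were 926 between 100-cell pools and bulk RNA and 4 between the pools. Without the pools that stand apart there were 6946 and 1801, and Gadd45g reversed to -0.31 between 100-cell pools and bulk RNA. The coefficient of variation in place of the SD of log2 values gave a median of 0.813 over single cells.

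Deviations of samples with the same replicate number correlated weakly (r -0.042 to 0.229, median 0.069, against a median of -0.030 for different numbers). They passed 0.1 in 2 of 18 pairs, although 11 of 12 libraries correlated best with their own number. The fit as reported used no replicate block, and whether equal numbers mark pairs was not settled. With a replicate block the counts were 77 for FACS-only against Pre-FACS, 37 for Pre-enriched against Pre-FACS, 7 for Mock against Pre-FACS, 4 for FACS-only against Mock, 2 between Mock and Pre-enriched, 7 between FACS-only and Pre-enriched and 61 for the F test. In the input series the block gave 915, 3 and 0, and Ier5 had an adjusted p of 0.318. Of the genes described, the block added calls between FACS-only and Pre-FACS for Gadd45a (adjusted p = 0.0255), Ier3 (0.0233) and Ier5 (0.0372), between Pre-enriched and Pre-FACS for Gadd45g (0.0140) and Btg2 (0.0277), and in the F test for Btg2 (0.0496).

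Leaving out each library in turn gave 5 to 24 genes for FACS-only against Pre-FACS, 1 to 7 for Pre-enriched against Pre-FACS, 0 to 1 for Mock against Pre-FACS, 0 to 0 for FACS-only against Mock, 0 to 0 between Mock and Pre-enriched, 0 to 2 between FACS-only and Pre-enriched and 1 to 17 for the F test. Without 1 bulk library, the other being assumed to vary like the pools, there were 1304 to 1486 genes for 10-cell pools, 362 to 498 for 100-cell pools and 1 to 1 between the pools. The difference between FACS-only and Pre-FACS ranged from -0.00123 (without FACS-only replicate 2) to 0.0311 for Pim3, and from -0.0267 (without FACS-only replicate 3) to 0.0441 for Btg1, so that both reversed.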
